A study of Mus musculus with 28 samples.

Results

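The intestinal carriers of sugars, short peptides and amino acids were followed as 10 genes in mouse small-intestinal organoids given single ligands of the Tgfb superfamily. The genes were chosen by name as apical and basolateral nutrient transporters, and all 10 were found among the 29413 genes of the BMP data and the 55416 genes of the Tgfb data. They are Slc5a1, Slc2a5, Slc2a2 and Slc2a1 for sugars, Slc15a1 for peptides, and Slc6a19, Slc3a1, Slc7a9, Slc7a7 and Slc1a1 for amino acids. RNA-seq was available from organoids of wild-type C57BL/6 mice, which are epithelial cultures grown from intestinal crypts in a gel matrix. Every organoid group, untreated ones included, was first grown in ENR medium with neither BMP nor Tgfb added. Recombinant ligand was then present at 500 ng/ml for 24 h. The BMP data held 4 untreated samples, 4 with BMP2, and 3 each with BMP3, BMP4, BMP5 and BMP7. A separately scaled data set held 3 untreated samples and 3 with Tgfb, and 2 further samples were mesenchymal cells of the duodenum. By its title the study concerns the terminal differentiation of enterocytes on villus tips, and the question addressed here is how each ligand changed the transcripts of nutrient uptake.

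Enterocytes take up nutrients through carriers in the brush border and release them through carriers in the basolateral membrane. Slc5a1 encodes the sodium-coupled carrier that brings glucose and galactose in, Slc2a5 the apical fructose carrier, and Slc2a2 the basolateral carrier through which sugars leave. Absorptive genes of this kind are known to be lower in the crypt than on the villus, where BMP signalling is active. Slc2a1 encodes a glucose carrier that most cell types use for their own supply.

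The promoters of 4 of the carriers are shown because these genes illustrate the patterns found. Slc5a1 and Slc6a19 moved in opposite directions with BMP2 and BMP4, Slc3a1 did so over a smaller range, and Slc2a1 rose where the absorptive sugar carriers fell. Sequences are from RefSeq on GRCm38.p6, 5′ to 3′ on the strand of the gene, and end at or before the annotated start. Capitals mark the searched motifs. The Slc5a1 window is chr5:33103969-33104218 (plus strand), the Slc6a19 window chr13:73692637-73692886 (minus strand), the Slc3a1 window chr17:85028097-85028346 (plus strand) and the Slc2a1 window chr4:119108495-119108710 (plus strand).
Slc5a1: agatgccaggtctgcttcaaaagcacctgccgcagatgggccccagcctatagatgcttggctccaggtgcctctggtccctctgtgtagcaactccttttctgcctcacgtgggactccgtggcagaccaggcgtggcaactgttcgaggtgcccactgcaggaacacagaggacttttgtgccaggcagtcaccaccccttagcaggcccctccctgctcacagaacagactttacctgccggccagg
Slc6a19: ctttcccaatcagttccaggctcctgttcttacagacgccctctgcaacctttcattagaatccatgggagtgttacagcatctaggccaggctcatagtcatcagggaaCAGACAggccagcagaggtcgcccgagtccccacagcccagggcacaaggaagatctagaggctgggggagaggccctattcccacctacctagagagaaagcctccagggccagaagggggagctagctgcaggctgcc
Slc3a1: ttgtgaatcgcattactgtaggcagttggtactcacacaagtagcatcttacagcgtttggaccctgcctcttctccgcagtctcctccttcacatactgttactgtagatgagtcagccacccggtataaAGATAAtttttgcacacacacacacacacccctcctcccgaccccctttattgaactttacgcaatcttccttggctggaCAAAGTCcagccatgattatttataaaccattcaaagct
Slc2a1: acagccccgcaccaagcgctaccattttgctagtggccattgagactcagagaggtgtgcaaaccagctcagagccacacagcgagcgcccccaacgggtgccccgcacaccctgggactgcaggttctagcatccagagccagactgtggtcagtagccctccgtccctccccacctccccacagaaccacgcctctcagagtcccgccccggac

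The motifs were searched on both strands in the 250 bases before the start, in 32851 promoters of the table, of which 15 belonged to the 10 carrier genes. Slc3a1 held an HNF4-type motif, CAAAGTC, present in 3.84% of all promoters, and a GATA-type motif, AGATAA, present in 9.99%. Slc7a9 and Slc7a7 also held AGATAA, and Slc7a7 held CAAAGTC and the HNF1 half-site GTTAAT, which 6.43% of promoters hold. The SMAD-box letters CAGACA lay in 5 of the 15 carrier promoters, which belong to Slc2a5, Slc6a19, Slc7a7 and Slc7a9, and in 17.1% of all promoters. No carrier promoter held the CDX-type motif TTTATG or the palindromic GC motif GGCGCC, present in 10.8% and 9.59% of all promoters. The Slc5a1 and Slc2a1 windows held none of the letters searched. Matches to different motifs did not overlap, and a match describes letters only. Windows of neighbouring starts of Slc7a7 and of Slc7a9 overlap, so that the AGATAA of Slc7a7 and the CAGACA of Slc7a9 were each counted in 2 windows.

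Depth in the BMP data was 21358620 to 24784834 recovered reads per sample, so that 1 read was worth 0.826 to 1.28 normalized counts. Depth of the Tgfb data, given in TPM, is unknown. The summed epithelial markers stood at 106620 to 120690 normalized counts in untreated samples, 591620 to 762240 with BMP2 and 237330 to 337800 with BMP4, and the summed leukocyte markers stayed at 22.8 to 75 normalized counts. Of the epithelial markers, Krt8 stood at 31200 to 37200 in untreated samples and 238000 to 326000 with BMP2. Epcam, Cdh1, Vil1 and Krt19 were also higher in every BMP2 sample, while Cdx2 overlapped (1740 to 2490 untreated, 1030 to 2240 with BMP2). Mesenchymal markers summed to 5.33 to 39.9 normalized counts in untreated samples and 33.3 to 55.4 with BMP2, over the 5 of 7 markers listed, with Dcn and Lum not listed. Endothelial markers summed to 569 to 774 in untreated samples, 832 to 1022 with BMP2 and 865 to 1031 with BMP4. Pecam1 made up the untreated sum, with Cdh5 and Kdr at 0 there. Enterocyte markers (Alpi, Fabp1, Fabp2, Apoa1 and Apoa4) summed to 31050 to 63070 in untreated samples, 30840 to 77810 with BMP2 and 289500 to 329800 with BMP4. Crypt stem cell markers summed to 99818 to 124495 in untreated samples, 1165 to 2048 with BMP2 and 3689 to 6504 with BMP4. Paneth cell markers summed to 72830 to 92250 in untreated samples and 19444 to 52860 with BMP2, and goblet cell markers to 17843 to 34204 in untreated samples and 60549 to 114128 with BMP4. Of the goblet cell markers, Fcgbp stood at 13000 to 23800 normalized counts in untreated samples and 52300 to 87900 with BMP4. Muc2, Tff3 and Spdef overlapped between these groups. In bulk samples, fewer cells of a type and less RNA per cell cannot be told apart, and the part of cell makeup in the results below was not tested. Nothing in the labels says that samples of a group came from separate animals or cultures, so p-values measure the spread between these samples. Sequencing was done in more than 1 run, and runs are not assigned to samples, so run and ligand cannot be told apart.

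The carriers of dietary sugar fell with BMP2 and rose with BMP4. Slc5a1 (ENSMUSG00000011034) stood at 7040, 7560, 10300 and 10700 normalized counts in the untreated samples. With BMP2 it stood at 245, 530, 586 and 809, and with BMP4 at 27900, 41700 and 44200. All BMP2 samples lay below all untreated samples, and all BMP4 samples above them. By limma with Benjamini-Hochberg adjustment over all genes tested, Slc5a1 was 17.5-fold lower with BMP2 (log2 fold change -4.13, SE 0.271, adjusted p = 1.01e-10). It was 4.25-fold higher with BMP4 (log2 fold change 2.09, SE 0.293, adjusted p = 5.06e-06). Fold changes here are on the log2(value + 1) scale, which understates the change of low genes.

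Slc2a5 (ENSMUSG00000028976), the fructose carrier, fell with BMP2 and rose with BMP4. Its normalized counts were 964, 1020, 1130 and 1790 without ligand, 24.7, 35.2, 42.2 and 63.3 with BMP2, and 3130, 6290 and 6700 with BMP4. The groups did not overlap. The gene fell by 4.89 on the log2 scale with BMP2 (SE 0.304, adjusted p = 4.99e-11, limma) and rose by 2.10 with BMP4 (SE 0.329, adjusted p = 1.8e-05, limma). Set directly against each other, BMP2 samples were 127-fold lower than BMP4 samples (log2 difference -6.99, 95% interval -7.68 to -6.30, adjusted p = 3.63e-12, limma).

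Slc2a2 (ENSMUSG00000027690), the exit carrier, followed the same order, at 544, 655, 1070 and 1400 normalized counts in untreated samples. It stood at 35.8, 42.3, 50 and 159 with BMP2 and at 4770, 8560 and 8690 with BMP4. Again no BMP2 or BMP4 sample overlapped an untreated sample, although 1 BMP2 sample lay well above the other 3. Slc2a2 was 14.3-fold lower with BMP2 (log2 fold change -3.83, SE 0.438, adjusted p = 2.14e-07, limma) and 8.27-fold higher with BMP4 (log2 fold change 3.05, SE 0.473, adjusted p = 1.62e-05, limma). The BMP4 gain of all 3 dietary sugar carriers went with enterocyte marker sums above those of every untreated sample. With BMP2 the marker sums overlapped the untreated range, while the 3 carriers did not. The 5 markers did not move together there. Fabp1 stood at 912 to 2900 normalized counts with BMP2 against 10800 to 19600 without ligand. Alpi, Fabp2, Apoa1 and Apoa4 overlapped the untreated range, Apoa4 at 7640 to 40800 with BMP2 against 5210 to 15700.

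**Figure D1:**
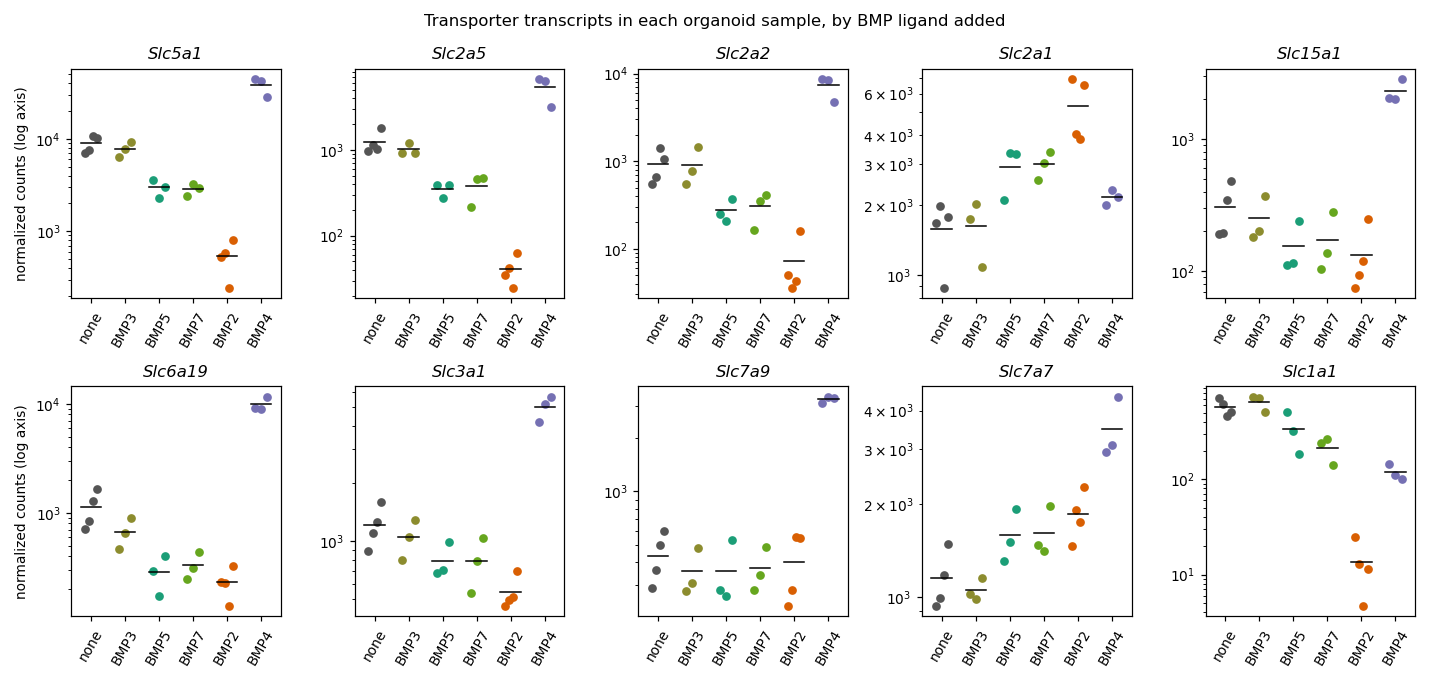
Normalized counts of the 10 carrier genes in each of the 20 BMP samples, on a log axis with its own range per gene, by ligand added (none, 4 samples; BMP2, 4; others, 3 each). Each point is a sample and each line the group mean; Slc5a1 lies between 245 and 809 with BMP2 and between 27900 and 44200 with BMP4, with untreated samples between.

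Slc2a1 (ENSMUSG00000028645), the carrier of general glucose supply, did not follow the dietary sugar carriers. It stood at 885, 1680, 1780 and 1990 normalized counts without ligand, 3830, 4040, 6520 and 6930 with BMP2, and 2010, 2160 and 2330 with BMP4. BMP2 samples lay above every other group, and BMP4 samples only just above the untreated ones. It rose 3.39-fold with BMP2 (log2 fold change 1.76, SE 0.254, adjusted p = 4.44e-06, limma), whereas its log2 difference with BMP4 was 0.51 (95% interval -0.06 to 1.09, adjusted p = 0.11, limma). In annotation, exons of Slc2a1 overlap the antisense gene Gm12868, and the strand used in counting is not given in the sources used here, so a share of its reads may be uncertain.

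Within a sample, the ratio of Slc5a1 to Slc2a1 removes the scaling between samples, though not the difference in gene length. It was 3.80 to 12.1 in untreated samples, 3.67 to 8.46 with BMP3, 12.9 to 22 with BMP4 and 0.064 to 0.145 with BMP2. BMP5 and BMP7 gave ratios of 0.694 to 1.71 and 0.875 to 1.07, below every untreated sample and above every BMP2 sample. The ratio of Slc5a1 to Slc2a2 was 5.09 to 16.4 with BMP2 and 7.64 to 12.9 without ligand, so the proportions of the brush-border and exit carriers of glucose overlapped. With BMP4 that ratio lay below every untreated sample, at 4.87 to 5.85.

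**Figure D2:**
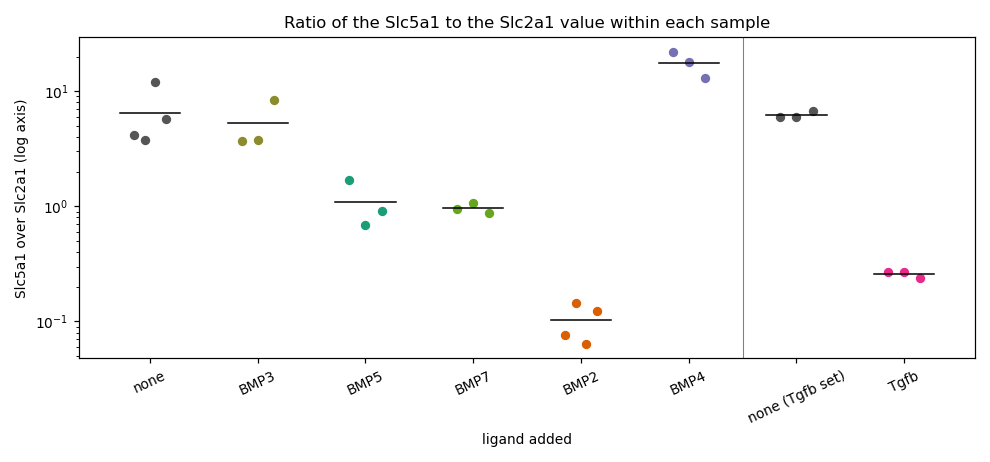
Ratio of the Slc5a1 value to the Slc2a1 value within each sample, on a log axis, by ligand added; points are samples, lines are group means, and the 6 samples right of the vertical line come from the separately scaled Tgfb data (ratio of TPM). The ratio runs from 0.064 with BMP2 to 22 with BMP4, and the Tgfb samples lie at 0.239 to 0.268.

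The apical carriers of peptides and neutral amino acids had the same pair of directions as Slc5a1. Slc6a19 (ENSMUSG00000021565), the main sodium-coupled carrier of neutral amino acids in the brush border, stood at 706, 839, 1290 and 1660 normalized counts without ligand. It stood at 141, 226, 233 and 327 with BMP2 and at 9060, 9180 and 11600 with BMP4. The groups did not overlap, with a log2 fold change of -2.25 for BMP2 (SE 0.306, adjusted p = 2.06e-06, limma) and 3.22 for BMP4 (SE 0.33, adjusted p = 1.12e-07, limma). The BMP4 gain of Slc6a19 was 9.30-fold.

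Slc15a1 (ENSMUSG00000025557), the proton-coupled carrier of short peptides, separated BMP4 from all other groups but BMP2 less cleanly. Normalized counts were 191, 193, 346 and 482 without ligand, 74.9, 93.3, 120 and 246 with BMP2, and 2010, 2040 and 2840 with BMP4. The highest BMP2 sample overlapped the untreated range. The gene rose 8.07-fold with BMP4 (log2 fold change 3.01, SE 0.429, adjusted p = 6.1e-06, limma) and fell by 1.22 on the log2 scale with BMP2 (SE 0.398, adjusted p = 0.00994, limma). The BMP2 call was lost under quantile normalization (log2 fold change -0.79, adjusted p = 0.0771), and adjusted p ran from 1.96e-06 to 0.0771 over its alternatives.

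Slc3a1 and Slc7a9 encode the heavy and light chains of 1 brush-border exchanger, which takes up cystine and cationic amino acids. Slc3a1 (ENSMUSG00000024131) stood at 886, 1100, 1260 and 1590 normalized counts without ligand, 460, 492, 513 and 697 with BMP2, and 4180, 5150 and 5640 with BMP4. Slc7a9 (ENSMUSG00000030492) stood at 289, 361, 499 and 600 without ligand, 229, 281, 551 and 553 with BMP2, and 3120, 3350 and 3390 with BMP4. Both chains were far above the untreated range with BMP4, while with BMP2 all heavy-chain samples lay below that range and the light-chain samples overlapped it. With BMP4 the chains rose by 2.07 (SE 0.231, adjusted p = 3.13e-07, limma) and 2.96 (SE 0.333, adjusted p = 3.44e-07, limma) on the log2 scale. With BMP2, Slc3a1 fell by 1.15 (SE 0.213, adjusted p = 8.35e-05, limma) and Slc7a9 had a log2 difference of -0.17 (95% interval -0.82 to 0.48, adjusted p = 0.636, limma). The within-sample ratio of Slc3a1 to Slc7a9 was 2.53 to 3.07 in untreated samples, 0.928 to 2.01 with BMP2 and 1.34 to 1.68 with BMP4. Exons of Slc3a1 overlap Prepl on the opposite strand, a gene whose reads could be shared where strand is not counted.

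Slc7a7 (ENSMUSG00000000958) works at the basolateral side, where it exports cationic amino acids as a complex with the Slc3a2 protein. It stood at 937, 995, 1180 and 1480 normalized counts without ligand, 1460, 1750, 1910 and 2270 with BMP2, and 2940, 3090 and 4430 with BMP4. BMP4 samples lay above all others, and the lowest BMP2 sample overlapped the untreated range. It rose 3.03-fold with BMP4 (log2 fold change 1.60, SE 0.187, adjusted p = 5.55e-07, limma) and 1.61-fold with BMP2 (log2 fold change 0.69, SE 0.173, adjusted p = 0.00142, limma). The BMP2 call was lost when every sample was scaled to the same total (log2 fold change 0.23, adjusted p = 0.193), and adjusted p ran from 1.32e-07 to 0.193 over its alternatives. The partner Slc3a2, chosen here after its values were seen, rose with both ligands. Its normalized counts were 1710 to 2140 without ligand, 2600 to 3810 with BMP2 and 3590 to 3920 with BMP4, with log2 fold changes of 0.70 (SE 0.103, adjusted p = 5.31e-06, limma) and 1.04 (SE 0.111, adjusted p = 1.96e-07, limma). The log2 difference of Slc3a2 was -0.02 with BMP5 (adjusted p = 0.923, limma) and 0.01 with BMP7 (adjusted p = 0.96, limma). In the Tgfb data it was 0.02 (adjusted p = 0.835, limma). Exons of Slc7a7 overlap Oxa1l on the opposite strand.

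Slc1a1 (ENSMUSG00000024935), the carrier of glutamate and aspartate, was the only one of the 10 that fell with both BMP2 and BMP4. It stood at 464, 504, 611 and 706 normalized counts without ligand, 4.71, 11.4, 12.8 and 25 with BMP2, and 101, 110 and 143 with BMP4. The 3 groups were fully separated. The gene was 44.7-fold lower with BMP2 (log2 fold change -5.48, SE 0.361, adjusted p = 1.07e-10, limma) and 4.80-fold lower with BMP4 (log2 fold change -2.26, SE 0.39, adjusted p = 5.26e-05, limma). Its fall with BMP4 ran against the enterocyte marker sum, which was higher in every BMP4 sample, and went with the lower sum of crypt stem cell markers. Its exons overlap 4430402I18Rik on the opposite strand.

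In counts, BMP2 lowered 7 of the 10 carriers and raised 2, where 38.4% of all 14746 genes tested fell and 36.8% rose (75.1% in either direction). BMP4 raised 8 and lowered 1, where 33.7% of all genes rose and 31.4% fell (65.1% in either direction). The median log2 fold change of the 10 was -1.73 with BMP2 and 2.09 with BMP4, beside -0.03 and 0.04 over all genes. Lower with BMP2 and higher with BMP4, both by the adjusted p, were Slc5a1, Slc2a5, Slc2a2, Slc15a1, Slc6a19 and Slc3a1, a pattern that 6.73% of all genes had (992 genes). These comparisons share the 4 untreated samples. Set against each other without them, BMP2 and BMP4 differed for all 10 carriers, where 66.8% of all genes differed (limma). BMP2 samples were lower for 9, where 33.4% of all genes were lower and 33.4% higher, with log2 differences from -0.91 (Slc7a7) to -6.99 (Slc2a5), and higher for Slc2a1 (1.25). With every sample scaled to the same total, the median of all genes shifted by -0.45 for BMP2 and -0.39 for BMP4 against untreated samples, since both groups had larger sums of normalized counts.

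**Figure D3:**
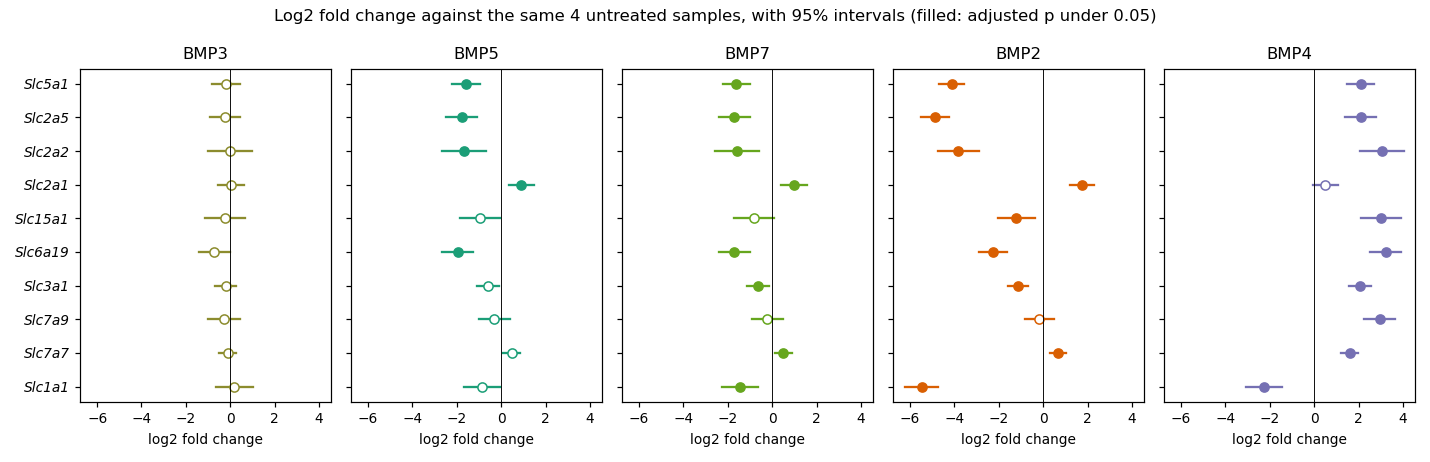
Log2 fold change of each carrier gene for each BMP ligand against the same 4 untreated samples (points) with 95% intervals (bars), from limma on log2(normalized count + 1); filled points have an adjusted p under 0.05. BMP2 and BMP4 points lie on opposite sides of 0 for Slc5a1 (-4.13 and 2.09), Slc2a5 and Slc2a2, all 10 BMP3 points are open, and Slc5a1 lies at -1.58 with BMP5 and -1.61 with BMP7.

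BMP5 and BMP7 both lowered the dietary sugar carriers and Slc6a19, and the sugar carriers were lower still with BMP2 than with BMP7. Slc5a1 stood at 2310, 3000 and 3600 normalized counts with BMP5 and at 2430, 2950 and 3260 with BMP7. Both groups lay below every untreated sample and above every BMP2 sample. Log2 fold changes against untreated samples were -1.58 (SE 0.293, adjusted p = 0.000534, limma) with BMP5 and -1.61 (SE 0.293, adjusted p = 0.000339, limma) with BMP7. In the direct comparison BMP2 samples were lower than BMP7 samples for Slc5a1 (log2 difference -2.52, adjusted p = 6.64e-07, limma), Slc2a5 (-3.18, adjusted p = 1.56e-07, limma), Slc2a2 (-2.26, adjusted p = 0.000411, limma) and Slc1a1 (-4.05, adjusted p = 6.58e-08, limma). For Slc6a19 the difference between BMP2 and BMP7 was -0.55 (adjusted p = 0.159, limma), which passed when every sample was scaled to the same total (-0.93, adjusted p = 0.018, with alternatives from 0.018 to 0.609), a scaling that moved the median of all genes in this comparison by -0.39. Of the 10 carriers, 5 differed between BMP2 and BMP7, where 62.8% of all genes did (31.4% in each direction), and the fifth was Slc2a1 (0.79, adjusted p = 0.0181, limma). Its call was lost under both other scalings (adjusted p = 0.194 and 0.2) and without BMP2 replicate II (0.059), BMP2 replicate VI (0.0532) or BMP7 replicate II (0.0732), with alternatives from 0.000114 to 0.2. Slc3a1 (-0.51, adjusted p = 0.0601, limma) passed without BMP2 replicate VI (0.026) or BMP7 replicate II (0.0103), by edgeR (0.0333), by DESeq2 (0.0424) and with the same total (0.00212), with alternatives from 0.000231 to 0.317.

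With BMP5, 4 carriers fell, where 9.87% of all genes fell, and 1 rose, where 16.5% rose (26.3% in either direction). Those that fell were Slc5a1, Slc6a19 (-1.96), Slc2a5 (-1.78) and Slc2a2 (-1.67), and Slc2a1 rose by 0.91. Slc2a5 stood at 276, 386 and 388 normalized counts and Slc2a2 at 209, 247 and 374, both below every untreated sample. With replicate number as a block, 9 of the 10 carriers passed, where 38.9% of all genes did, adding Slc15a1 (adjusted p = 0.000941), Slc1a1 (0.0035), Slc3a1 (0.000466) and Slc7a7 (0.000206), all by limma. Adjusted p over the alternatives ran from 0.000941 to 0.318 for Slc15a1, 0.0035 to 0.492 for Slc1a1, 0.000466 to 0.196 for Slc3a1 and 0.000206 to 0.336 for Slc7a7. The count was 3 without BMP5 replicate III, when Slc2a2 (0.0704) and Slc2a1 (0.092) missed the threshold, and Slc2a1 also missed it without BMP5 replicate VI (0.091) or control replicate IV (0.062). Slc7a7 passed without BMP5 replicate II (0.0406) or control replicate VI (0.0289), Slc1a1 without BMP5 replicate II (0.0357), and Slc3a1 without BMP5 replicate VI (0.0457) or control replicate II (0.0296).

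With BMP7, 6 carriers fell, where 13.2% of all genes fell, and 2 rose, where 19.2% rose (32.4% in either direction). Slc6a19 fell by 1.71, Slc2a5 by 1.71, Slc2a2 by 1.57, Slc1a1 by 1.44 and Slc3a1 by 0.63 on the log2 scale, while Slc2a1 rose by 0.97 and Slc7a7 by 0.50. Slc1a1 stood at 142, 240 and 262 normalized counts and Slc2a1 at 2570, 3040 and 3370, on opposite sides of the untreated samples. The calls for Slc3a1 (adjusted p = 0.0428, limma) and Slc7a7 (adjusted p = 0.0491, limma) were near the threshold, with samples that overlapped the untreated ones, and held in 9 and 7 of 16 alternatives. Adjusted p ran from 0.000239 to 0.263 for Slc3a1 and from 8.96e-05 to 0.233 for Slc7a7 over these. The Slc3a1 call was lost without BMP7 replicate II (0.263) or III (0.0709) or control replicate III (0.0592), IV (0.083) or VI (0.131). The Slc7a7 call was lost without BMP7 replicate II (0.0723) or VI (0.233) or control replicate II (0.129), III (0.121) or IV (0.0668). Of the other calls, Slc2a2 missed the threshold without BMP7 replicate II (0.111) or control replicate IV (0.0517), and Slc2a1 (0.0509) and Slc1a1 (0.0596) missed it without BMP7 replicate VI. The count was 5 without BMP7 replicate II, BMP7 replicate VI or control replicate IV. With replicate number as a block Slc15a1 joined the carriers that fell, making 9 where 45.4% of all genes passed (adjusted p = 0.00248, limma, with alternatives from 0.00248 to 0.465).

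Between BMP5 and BMP7 no carrier differed by limma (0 of 10, and 0 at an unadjusted p under 0.05), where 0.0136% of all genes did. Count tests on the recovered reads also gave 0 of 10 (edgeR and DESeq2). The samples of both ligands overlapped for every carrier. Log2 differences ran from -0.25 (Slc6a19) to 0.58 (Slc1a1), and the widest limits of the 95% intervals were -1.16 and 1.45. For Slc5a1 the difference was 0.03 with an interval of -0.63 to 0.69, so differences within that range are not excluded by these 3 samples each. BMP4 samples were higher than BMP7 samples for 8 carriers, where 28.4% of all genes were higher and 31.4% lower (59.8% in either direction), and Slc2a1 (-0.46, adjusted p = 0.189, limma) and Slc1a1 (-0.82, adjusted p = 0.0978, limma) did not pass. With replicate number as a block both passed (adjusted p = 0.0373 and 0.00999, limma), where 67.7% of all genes did. Slc2a1 ran from 0.0203 to 0.365 over its alternatives and Slc1a1 from 0.00999 to 0.271, and both passed with every sample scaled to the same total (0.0203 and 0.0231). Slc1a1 also passed without BMP7 replicate VI (0.0491), by edgeR (0.0189) and by DESeq2 (0.0265).

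BMP3 left the carriers within the range of the untreated samples or overlapping it. Slc5a1 stood at 6420, 7650 and 9220 normalized counts, Slc2a5 at 914, 919 and 1200, and Slc15a1 at 182, 200 and 371. All 10 carriers overlapped the untreated samples. None passed by limma (0 of 10, with 1 at an unadjusted p under 0.05), where 0% of all genes passed and 110 genes had an unadjusted p under 0.05. On recovered reads, edgeR and DESeq2 also gave 0 of 10 carriers, and called 0 and 1 of all genes. The largest difference was that of Slc6a19, at 466, 657 and 893 normalized counts, with a log2 difference of -0.71 (95% interval -1.40 to -0.01, adjusted p = 1, limma). Among the 5 ligands as a whole, 10 of 10 carriers differed by limma's moderated F-test, where 84.1% of all genes did.

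With Tgfb the dietary sugar carriers and Slc6a19 fell, and Slc2a1 and Slc7a7 rose. The Tgfb data were scaled separately, and no test was made between them and the BMP data. In TPM, a unit per gene length that allows levels of different genes to be set side by side, Slc5a1 was the highest carrier in untreated organoids at 194 ± 30.3 (SD, n = 3). Slc2a5 followed at 65.2 ± 16.3, and Slc3a1, Slc2a2, Slc7a7 and Slc2a1 lay at means of 39.5 to 31.1 with overlapping neighbours. Slc6a19 stood at 24.8 ± 0.556, Slc7a9 at 17.6 ± 1.72, Slc1a1 at 11.2 ± 1.5 and Slc15a1 at 8.27 ± 0.989 (SD, n = 3 each), with no overlap between neighbours. With Tgfb the order began with Slc2a1 at 101 ± 15.6 and Slc7a7 at 67.9 ± 8.08, and Slc5a1 at 25.9 ± 2.46 overlapped Slc3a1 at 28.4 ± 2.4 (SD, n = 3 each).

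Slc5a1 stood at 175, 178 and 229 TPM without Tgfb and at 23.2, 26.4 and 28.1 with it, 7.21-fold lower (log2 fold change -2.85, SE 0.126, adjusted p = 3.5e-06, limma). Slc2a5 stood at 48.9, 65.3 and 81.4 without and at 3.71, 4.68 and 7.16 with Tgfb (log2 fold change -3.43, SE 0.246, adjusted p = 2.59e-05, limma). Slc2a2 stood at 28.2, 34.8 and 47.1 without and at 2.17, 2.96 and 3.32 with Tgfb (log2 fold change -3.29, SE 0.209, adjusted p = 1.47e-05, limma). All 3 dietary sugar carriers were lower in every Tgfb sample than in any untreated one. Slc2a1 moved the other way, from 29.1, 30 and 34 TPM to 86.6, 99 and 118 (log2 fold change 1.66, SE 0.123, adjusted p = 3e-05, limma). The ratio of Slc5a1 to Slc2a1 was 5.92 to 6.72 without and 0.239 to 0.268 with Tgfb.

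Among the amino acid carriers Slc6a19 fell by 2.56 on the log2 scale with Tgfb, from 24.4, 24.6 and 25.5 TPM to 3.17, 3.25 and 3.76 (SE 0.11, adjusted p = 3.07e-06, limma). Slc7a7 rose 1.98-fold, from 32.5, 32.7 and 35.8 TPM to 62.1, 64.5 and 77.2 (SE 0.0986, adjusted p = 0.000127, limma). Neither gene overlapped between the groups. Of the chains of the cystine exchanger, the heavy chain passed and the light chain did not. Slc3a1 fell by 0.47 (SE 0.081, adjusted p = 0.00196, limma), from 37.6, 40.3 and 40.6 TPM to 26.6, 27.4 and 31.1. Slc7a9 stood at 15.7, 18.1 and 19 without and 17, 17.4 and 19.1 with Tgfb, with a log2 difference of 0.02 (95% interval -0.20 to 0.25, adjusted p = 0.848, limma). In all, 5 of 8 carriers tested fell and 2 rose, where 32.9% of 7880 genes fell and 31.4% rose (64.3% in either direction).

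Slc1a1 and Slc15a1 had means under 10 TPM over the 6 samples and entered only a fit with the lower limit of 1 TPM, in which 56.7% of 12959 genes passed. There Slc1a1 was 5.68-fold lower on the log2(TPM + 1) scale (log2 fold change -2.51, SE 0.145, adjusted p = 3.36e-05, limma), from 10.2, 10.5 and 12.9 TPM to 0.872, 1.16 and 1.43. At values near 1 TPM that scale understates the fall, and the means were 11.2 TPM without and 1.15 TPM with Tgfb. Slc15a1 fell by 0.93 (SE 0.187, adjusted p = 0.00614, limma), from 7.55, 7.87 and 9.4 TPM to 2.7, 4.41 and 4.71. With these, 7 of 10 carriers fell with Tgfb and 2 rose, where 29.3% and 27.4% of genes did in that fit. Enterocyte markers summed to 3717 to 5394 TPM without and 2944 to 3719 TPM with Tgfb, and crypt stem cell markers to 2504 to 2956 and 165 to 172 TPM. The enterocyte markers split with Tgfb. Alpi (67.6 to 99.1 TPM without, 194 to 238 with Tgfb), Apoa4 (303 to 462, 704 to 1014) and Apoa1 (875 to 1318 with Tgfb) were higher in every Tgfb sample than in any untreated one. Fabp1 (2560 to 3780, 982 to 1061) and Fabp2 (347 to 428, 97.6 to 166) were lower in every Tgfb sample. The part of these markers in the result was not tested.

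**Figure D4:**
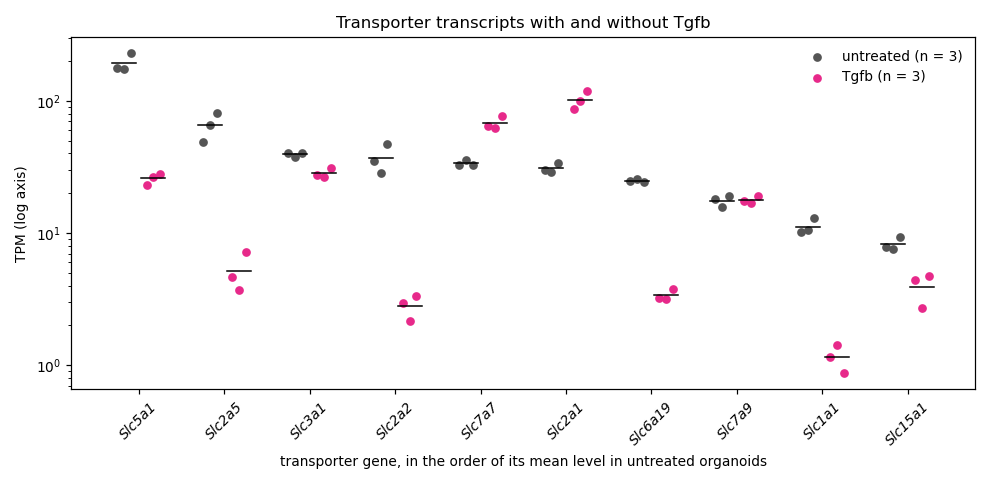
TPM of the 10 carrier genes in 3 untreated and 3 Tgfb-treated organoid samples, on a log axis, ordered by the untreated mean; points are samples and lines are group means. Slc5a1 drops from 194 to 25.9 TPM on average, Slc2a1 and Slc7a7 are higher with Tgfb, and the Slc7a9 samples overlap.

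Sis, Lct and Treh, enzymes that release sugars for these carriers, fell with BMP2 and rose with BMP4. Sis, which splits sucrose and starch products, stood at 16200 to 37500 normalized counts in untreated samples, 1280 to 2320 with BMP2 and 56900 to 96600 with BMP4. Lct, the lactose-splitting enzyme, stood at 104 to 392, 22.7 to 151 and 7810 to 11400. The BMP4 rise of Lct was 5.40 on the log2 scale (SE 0.585, adjusted p = 2.15e-07, limma), against 1.80 for Sis (SE 0.337, adjusted p = 0.000126, limma). Of 5 disaccharidase genes, 4 fell and 1 rose with BMP2, and 4 rose with BMP4 (median log2 fold changes -2.31 and 1.80, beside -0.03 and 0.04 over all genes). Over all genes tested, 38.4% fell and 36.8% rose with BMP2, 31.4% fell and 33.7% rose with BMP4, while BMP5 changed 26.3%, BMP7 32.4% and Tgfb 64.3% of them. The counts of this and the following lists stand beside these shares. Treh, which splits trehalose, fell by 4.24 with BMP2 (SE 0.458, adjusted p = 1e-07, limma). BMP5 lowered 2 and raised 1 of the 5, and BMP7 lowered 3 and raised 1. The gene that rose was in both cases Mgam2-ps, a pseudogene by its name, by 1.82 with BMP5 (SE 0.245, adjusted p = 2.42e-05, limma) and 1.91 with BMP7 (SE 0.245, adjusted p = 1.02e-05, limma). With Tgfb, 3 of the 4 tested fell and Mgam2-ps rose by 2.48 (SE 0.133, adjusted p = 7.28e-06, limma), and Sis fell by 2.51 (SE 0.177, adjusted p = 2.42e-05, limma).

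Among 9 genes for partner proteins and the ion gradients that drive uptake, 6 fell and 2 rose with BMP2, and 5 rose and 2 fell with BMP4 (medians -1.26 and 1.00), so 8 and 7 of 9 changed where 75.1% and 65.1% of all genes did. BMP5 lowered 4, BMP7 lowered 6, and Tgfb lowered 6 and raised 1 of 7 tested. Anpep, a brush-border peptidase, fell by 4.35 with BMP2 (SE 0.279), and Slc9a3, the apical sodium-proton exchanger, fell by 4.98 (SE 0.426). Pdzk1, a scaffold protein, rose by 3.53 with BMP4 (SE 0.5), and Slc9a3r1, another scaffold protein of the brush border, rose with both BMP2 (1.15, SE 0.128) and BMP4 (1.89, SE 0.138). Kcnq1, a potassium channel subunit, fell by 2.01 with BMP4 (SE 0.143).

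Other carriers moved in both directions. Of 13 other sugar carriers tested, 8 fell and 2 rose with BMP2, and 7 rose with BMP4 (medians -2.18 and 1.11), so 10 and 7 of 13 changed where 75.1% and 65.1% of all genes did. BMP5 and BMP7 each lowered 4 and raised 1, where 26.3% and 32.4% of all genes changed. Slc45a3 rose from 94.4 ± 14.3 (SD, n = 4) to 1014 ± 134 (SD, n = 4) normalized counts with BMP2. Slc5a11, a relative of Slc5a1, stood at 94.5 ± 44.9 without ligand and 0.863 ± 1.09 with BMP2 (SD, n = 4 each). Of 24 other amino acid and peptide carriers, 9 fell and 5 rose with BMP2, and 11 fell and 7 rose with BMP4 (medians -0.11 and -0.34), so 14 and 18 of 24 changed where 75.1% and 65.1% of all genes did. BMP5 lowered 4 of them, BMP7 lowered 5 and raised 1, and Tgfb lowered 7 and raised 2 of 12 tested. Slc7a2, a cationic amino acid carrier, fell with both BMP2 (-4.82, SE 0.307) and BMP4 (-4.25, SE 0.331), and Slc43a2, a neutral amino acid carrier, rose by 3.81 with BMP4 (SE 0.251, adjusted p = 5.82e-10, limma).

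Of 16 genes listed as regulators of enterocyte nutrient genes, 6 rose and 4 fell with BMP2, and 12 rose and 2 fell with BMP4 (medians 0.13 and 1.00), so 10 and 14 of 16 changed where 75.1% and 65.1% of all genes did. BMP5 raised 2 and lowered 4, and BMP7 raised 4 and lowered 3. Mlxipl, the carbohydrate-responsive factor, fell by 3.77 with BMP2 (SE 0.154, adjusted p = 4.35e-13, limma). Hnf4g, a nuclear receptor of enterocytes, was 4.10 lower on the log2 scale with BMP2 than with BMP4 (SE 0.222, adjusted p = 1.73e-11, limma). Maf rose by 5.21 with BMP4 (SE 0.191), and Klf4 rose with both BMP2 (2.74, SE 0.135) and BMP4 (3.94, SE 0.146). With Tgfb, 7 of 13 tested fell and 3 rose, and Mlxipl fell by 1.95 (SE 0.132) and Hnf4g by 1.49 (SE 0.138).

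Across the 20 BMP samples, the carriers fell into unlike patterns, described by Pearson r of log2(normalized count + 1). These samples come from 6 groups, so r mainly reflects differences between ligands. Slc5a1 was most like Ss18l2 (r = 0.993), its fellow sugar carrier Slc2a5 (r = 0.99) and Khk, which encodes the enzyme that phosphorylates fructose (r = 0.99), among 11856 genes with a mean of at least 50. Slc15a1 was most like Mfsd4b3-ps (r = 0.99), 9130016M20Rik (r = 0.989) and Tm6sf2 (r = 0.988), and among the carriers it tracked Slc3a1 (r = 0.981). Slc2a1 was most like Tmsb10 (r = 0.944), Gm3788 (r = 0.94) and Gm19680 (r = 0.934), and its r with Slc5a1 was -0.708. Slc1a1 had r = 0.638 with Slc5a1 and 0.0941 with Slc15a1.

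The mesenchymal samples, 1 of freshly isolated cells from mice with the PdgfraH2BeGFP reporter and 1 of such cells after immortalisation and sorting, have no replicates. Slc2a1 stood at 40.4 TPM in fresh and 38.9 TPM in immortalised cells. Slc7a7 stood at 11.1 and 3.56 TPM. Each of the other 8 carriers was at 0.256 TPM or lower in both samples, and Slc5a1, Slc15a1, Slc6a19 and Slc7a9 were listed at 0.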

How the data were processed

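Expression was measured by mRNA sequencing in 26 organoid and 2 mesenchymal samples. In the BMP data the authors deposited a signal, gene counts divided by a size factor per sample and kept to 3 significant digits, as read from the values, of which 100% of 180721 low ones were whole reads within 0.1. In the Tgfb and mesenchymal data the deposited values are TPM, since each column sums to 1000000. Trim Galore, Salmon, DESeq2 and GRCm39 are named in the submitters' processing notes, with no versions.

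Groups came from the labels, and 0 columns were left unmapped. limma 3.58.1 with an intensity trend (R 4.3.3) was fitted to log2(value + 1), two-sided, over genes with a mean of at least 10 in a data set (14746 of 29413 and 7880 of 55416 genes). P-values were Benjamini-Hochberg adjusted over all genes, with a threshold of 0.05. The design foresaw edgeR for raw counts, and no table held these. The scripts were tested on simulated data in which far fewer genes changed than here, so that test does not cover changes this widespread. Alternatives were other pseudocounts (0.1 and 5), filters (none, at least 1 and at least 50), scaling to the same total, quantile normalization, edgeR 4.0.16 and DESeq2 1.42.0 on recovered reads, the replicate block, and leaving out each sample. Reads carry no molecular identifiers.

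Replicate numbers in the titles were checked by correlating deviations from the group means. All pairs exceeded 0.1 for BMP3 (0.281 to 0.553), BMP4 (0.19 to 0.225), BMP5 (0.158 to 0.262) and BMP7 (0.236 to 0.294) against untreated samples, and for BMP4 with BMP7 (0.206 to 0.293) and BMP5 with BMP7 (0.15 to 0.489), so the numbers were taken to pair these samples. All 10 carriers are named. From each other list, at most 2 genes that rose most and 2 that fell most per comparison are named, among those past the threshold without overlap between groups. Sis and Lct are named for their products, and 3 genes per pattern by highest r. Slc3a2 was added after its values were seen. A gene of the partner list and an enterocyte marker are not reported here and enter no count or sum. The members and lists were chosen with earlier results of these data known.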

Additional observations from a re-analysis of the deposited data

Results flagged for a closer look

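Slc2a2 with BMP2 stood at 159 normalized counts in replicate VI, far from the other 3 samples at 35.8, 42.3 and 50. It was the only 1 of 20 sets of 4 samples, a carrier in the BMP2 or the untreated group, with a sample this far from the rest, and chance gives about 1 in 20. The same sample had the highest enterocyte marker sum of its group, 77810 against 30840 to 44302. Without it the log2 fold change of Slc2a2 with BMP2 was -4.30 in place of -3.83 (adjusted p = 1.26e-08, limma), and the part of the markers in the Slc2a2 value was not tested.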

How the results depend on the processing

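The 110 results (a carrier in a comparison) were refitted under the alternatives that applied to each, 1789 refits in all. No count test could be run on the TPM of the Tgfb data. Slc1a1 and Slc15a1 with Tgfb had only the fit with no filter as an alternative. The F-test over the ligands has no direction, and there only the side of the threshold was compared. Of the refits, 1679 kept the direction and the side of the threshold, 31 lost a call, 29 gained one and 50 changed sign, all of them for carriers that were not called. The refits kept include those of Tgfb scaled to the same total, which repeat the main fit because the TPM sums were already equal. The counts of carriers called stayed within 1.5 times the main count except in 4 comparisons. These were 9 for BMP5 with the replicate block, 8 between BMP2 and BMP7 with the replicate block, 3 for Tgfb with a mean of at least 50 TPM, which leaves fewer carriers tested, and, on leaving out single samples, 3 to 7 for BMP5 and 5 to 7 for BMP7. The replicate numbers did not pair the samples of BMP2 (correlations 0.0182 to 0.421, 3 of 4 samples best with their own number), of BMP2 with BMP7 (-0.107 to 0.218, 2 of 3), of BMP2 with BMP4 (-0.04 to 0.298, 2 of 3) and of Tgfb (-0.0192 to 0.141, 1 of 3). There the block moved the count from 5 to 8 between BMP2 and BMP7, with Slc3a1 (adjusted p = 0.000231, limma) among those gained, and left it at 9 for BMP2, 10 between BMP2 and BMP4 and 7 for Tgfb. The share of all genes that passed with the block is not given for these comparisons, so the counts single out nothing about the carriers. Elsewhere the block raised that share, from 26.3% to 38.9% with BMP5 and from 32.4% to 45.4% with BMP7. In the comparisons with paired numbers the block changed no call besides those given above.

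Sign changes of uncalled log2 differences were small, and their cause was not tested. Between BMP2 and BMP7, Slc15a1 was 0.04 and Slc7a7 -0.01 with quantile normalization, Slc7a7 was -0.20 and Slc7a9 -0.34 with the same total, and Slc7a9 was -0.08 with the replicate block. Scaling to the same total moved the median of all genes in that comparison by -0.39. Quantile normalization gave 0.06 for Slc7a9 with BMP2, 0.01 for Slc7a7 between BMP5 and BMP7 and -0.01 for Slc7a9 with Tgfb. With BMP3, Slc2a2 was 0.11 and Slc7a7 0.0 with the replicate block, and Slc2a2 was 0.0 with the same total. Between BMP5 and BMP7, edgeR gave -0.01 for Slc3a1. Leaving out single samples gave -0.74 to 0.01 for Slc15a1 and -0.13 to 0.29 for Slc7a9 between BMP2 and BMP7. Leaving out single samples gave -0.35 to 0.07 for Slc7a9 with BMP2. Leaving out single samples gave -0.21 to 0.31 for Slc2a1, -0.40 to 0.29 for Slc2a2, -0.55 to 0.03 for Slc15a1 and -0.20 to 0.02 for Slc7a7 with BMP3. Leaving out single samples gave -0.12 to 0.20 for Slc5a1, -0.17 to 0.16 for Slc2a1, -0.50 to 0.16 for Slc2a2, -0.43 to 0.13 for Slc2a5, -0.48 to 0.29 for Slc15a1, -0.53 to 0.07 for Slc6a19, -0.18 to 0.12 for Slc7a7, -0.42 to 0.13 for Slc7a9 and -0.22 to 0.26 for Slc3a1 between BMP5 and BMP7. Leaving out single samples gave -0.05 to 0.08 for Slc7a9 with Tgfb. Depth is unknown in the Tgfb data, so the counting error of its low TPM could not be given. With 3 samples a group, the uncalled differences are bounded only by their intervals.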
